A study of Mus musculus with 9 samples.

Results

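Ventricles that lack estrogen-related receptor gamma (ERRγ) were compared with wild-type ventricles on 6 of the 9 expression arrays of a mouse study, 3 titled ERRg -/- and 3 titled ERRg +/+. All came from male fetuses at E18.5, late in gestation, collected by caesarean section, with the hearts kept in RNALater until RNA extraction. The other 3 arrays, titled ERRg +/-, carry 1 intact copy of the gene and were used for the spread between arrays and as a bridge between array handling groups. No treatment or other allele is named for any group, and the labels state neither the strain nor how the knockout allele was made. The source label of each array opens with a 3, which leaves it unclear whether an array holds 1 ventricle sample or a pool. Thus p-values here cover only the variation from array to array within a genotype. The comparison is restricted to genes that the array reads more than once: of 13028 genes with a probe set above the 40th percentile of mean signal (a signal of 21.7), 6135 had 2 or more, 16647 probe sets in all. Of these genes, 3488 had 2 probe sets, 1576 had 3 and 1071 had 4 or more.

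ERRγ is an orphan nuclear receptor: it has the fold of a hormone receptor but no known natural hormone. It binds DNA at a half-site related to the estrogen response element and works with the coactivators PGC-1α and PGC-1β. In heart muscle it is known for driving genes of mitochondrial respiration, fatty acid oxidation and contraction, the programme that the heart needs once it leaves the low-oxygen, glucose-fed life of the fetus.

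Genotype coincided with array handling. The labels name no batch, but the log2 ratio of 2 spike-in transcripts, thr over dap, parted the arrays into 2 handling groups. The first group, at -1.03 to -0.82, held all 3 ERRg +/+ arrays and ERRg +/- array 1. The second, at -1.35 to -1.21, held all 3 ERRg -/- arrays and ERRg +/- arrays 2 and 3. Genotype and handling can therefore be set apart only through the 3 ERRg +/- arrays. With 1 of these in the first group, a difference between single arrays cannot be told apart from handling. Many results below are given also with handling as a block, and some within a handling group. Array medians ran from 36.6 to 45.9 on the deposited scale, which is a linear MAS5 signal. Genes of the lung, liver and lymphocyte lists were near background on every array, with 0 genes read by 2 probe sets and summed signals of 5.79 to 56.1 for lung and 19.6 to 66.3 for liver, while the cardiomyocyte list summed to between 156412 and 187903 signal units. The cardiomyocyte sum was 174531 to 187903 on the ERRg +/+ arrays and 156412 to 171881 on the ERRg -/- arrays. Of the ERRg +/- arrays, array 1 summed to 177248, within the wild-type range, and arrays 2 and 3 to 164605 and 158533, within the knockout range. In whole ventricle, fewer cells of a type and less RNA per cell cannot be told apart.

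Esrrg, the gene that encodes ERRγ (chr1:187608510-188214885, GRCm38.p6), was read by 3 qualifying probe sets, and 1 of them tracked the genotype. Probe set 1455267_at gave signals of 281, 213 and 206 on the ERRg +/+ arrays, 162, 164 and 162 on the ERRg +/- arrays and 58.3, 58.1 and 39.3 on the ERRg -/- arrays. The 3 genotypes did not overlap, and the knockout mean was 22.2% of the wild-type mean. The log2 change was -1.88 ± 0.19 (SE), with an adjusted p of 0.000527 by limma over 23540 probe sets. With the handling block it was -1.89, where the limma adjusted p was 0.235 and the call was lost. An exact permutation test of 3 against 3 arrays, two-sided, gave p = 0.1, the smallest this design allows. Probe set 1421747_at read 52.2, 64.1 and 10.2 in wild type and 45.8, 36.4 and 17.0 in the knockout, and 1457896_at read 21.5, 37.0 and 56.7 against 36.2, 25.3 and 34.7. Both of these overlapped between genotypes, with log2 changes of -0.14 and -0.13 and limma adjusted p of 0.912 and 0.905. The mean over the 3 probe sets fell short of the threshold, at -0.72 ± 0.19 with a limma adjusted p of 0.102, so a gene that the labels say was disrupted was not called when its probe sets were averaged.

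**Figure D1:**
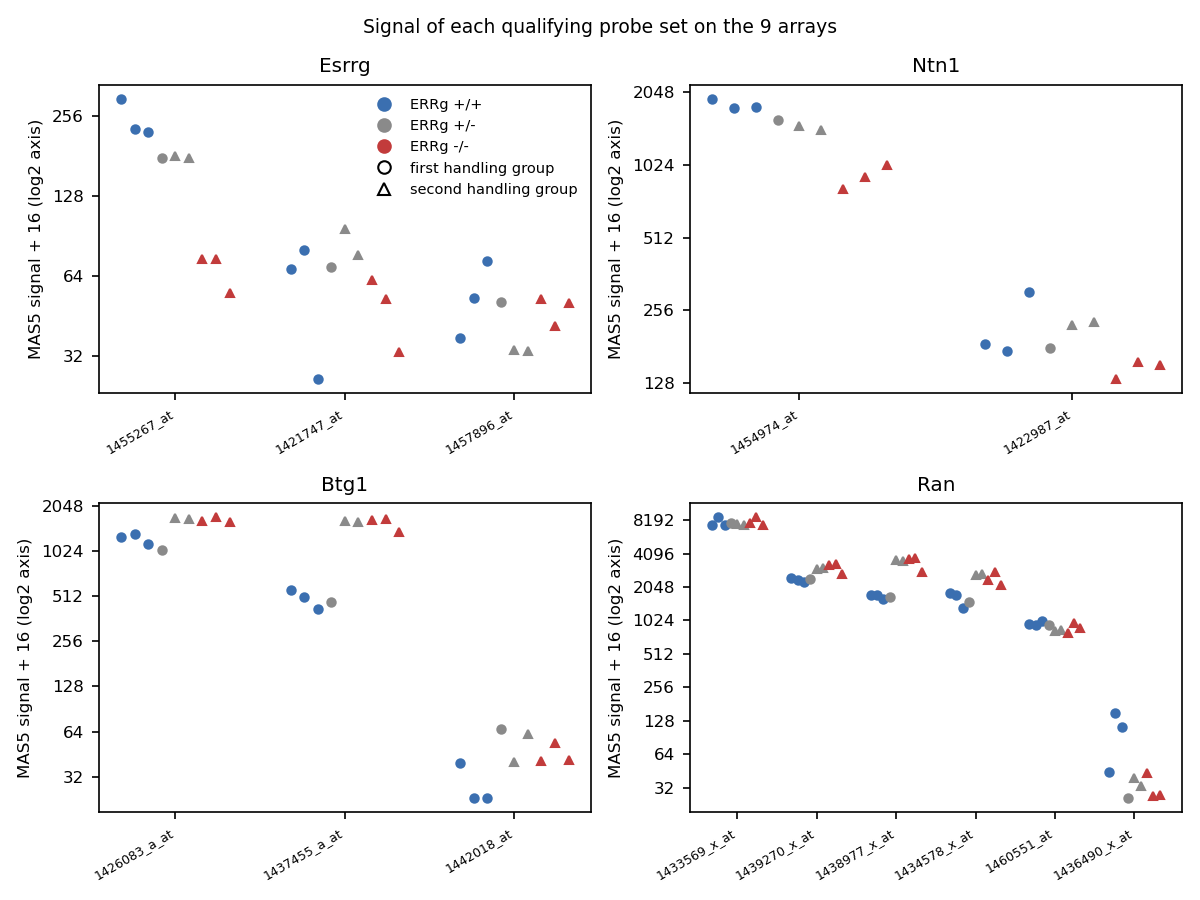
MAS5 signal plus 16 (log2 axis) of every qualifying probe set of Esrrg, Ntn1, Btg1 and Ran on the 9 arrays; colour gives the genotype and the marker shape the handling group. One of 3 Esrrg probe sets and both Ntn1 probe sets are lowest in ERRg -/-, while for Btg1 and several Ran probe sets ERRg +/- arrays 2 and 3 lie with the knockout and array 1 lies with wild type.

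Probe sets of the same gene agreed little in their change. The 2 brightest probe sets of a gene changed in the same direction in 3364 of 6135 genes (54.8%), and their log2 changes had a correlation of 0.11 across genes, given as a description. Among the 197 genes whose gene mean moved by at least 0.5 on the log2 scale, 183 (92.9%) had the 2 brightest on the same side, a share that the averaging itself favours. Tested singly with limma, 186 of 23540 probe sets were called at an adjusted p under 0.05 (0.790%), 108 higher and 78 lower in the knockout. Of these, 135 lay in 126 genes with a second qualifying probe set. In 119 of the 126 genes only 1 probe set was called, and in 64 another probe set of the gene moved in the opposite direction, by any amount. The matching count over all 6135 genes was not made, so the 64 do not set these genes apart. Only 7 genes had 2 or more called probe sets: Acaa2, Entpd5, Il13ra1, Kcne1, Marcks, Matr3 and Rgs2.

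**Figure D2:**
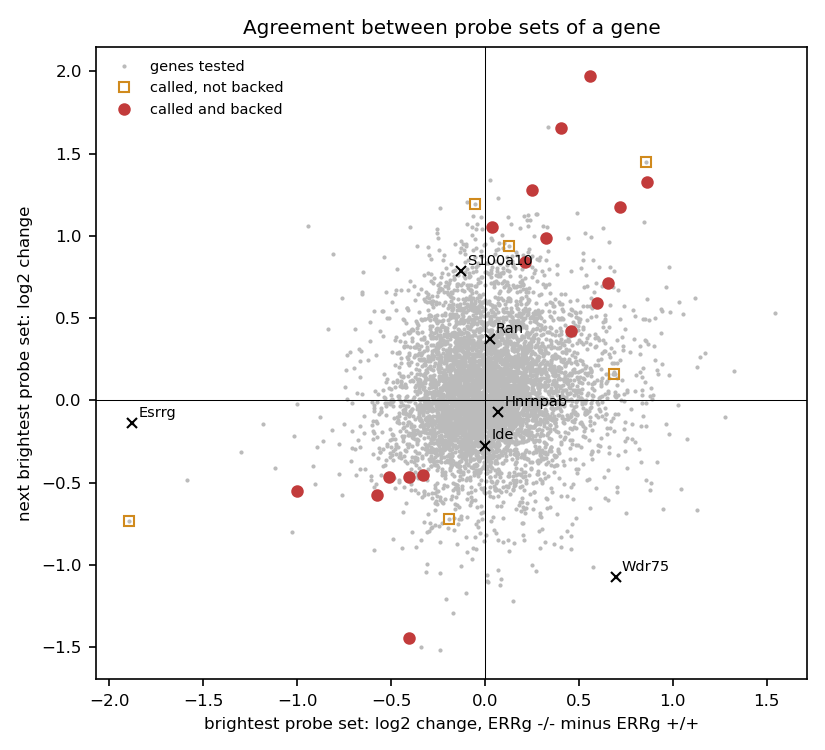
Log2 change between ERRg -/- and ERRg +/+ of the brightest probe set of each of 6135 genes (x axis) against the next brightest (y axis). Filled points are the 17 genes called on their mean and backed by agreeing probe sets, open squares the 6 called but not backed, and crosses the 6 genes with the widest disagreement; the cloud of all genes shows little slope.

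On gene means, 23 of 6135 genes were called by limma (0.375%), 15 higher (0.244%) and 8 lower (0.130%) in the knockout. A gene was counted as backed when it was called and at least 2 of its probe sets separated all knockout from all wild-type arrays in that direction and none in the other. By this rule 17 genes were backed, 11 higher and 6 lower. The number of calls is fragile: it was 0 with the handling block, where 422 genes had an unadjusted p under 0.05 against 972 without it and 1 probe set was called. It was 0 without ERRg -/- array 1, 1 without each of ERRg -/- arrays 2 and 3 and ERRg +/+ array 2, 5 without each of ERRg +/+ arrays 1 and 3, 10 without ERRg +/- array 2, and 215 without ERRg +/- array 1. After a shift of each array to 1 median, 0 genes were called higher and 2 lower. The direction of all 17 backed genes held in every one of these fits. Leaving out 1 array could not have reversed it, because their knockout and wild-type gene means did not overlap.

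Netrin-1, a secreted guidance cue, was the clearest fall. Ntn1 (chromosome 11) gave 1911, 1742 and 1769 on the ERRg +/+ arrays in probe set 1454974_at, 1550, 1464 and 1405 on the ERRg +/- arrays and 794, 895 and 1004 on the ERRg -/- arrays. The second probe set, 1422987_at, gave 170, 158 and 290 in wild type, 162, 206 and 214 in ERRg +/- and 117, 140 and 136 in the knockout. Both probe sets placed all knockout arrays below all others. The gene mean fell by 0.78 ± 0.11 (log2, limma adjusted p = 0.0201), a change of -0.89 with the handling block and of -0.65 between the knockout and ERRg +/- arrays 2 and 3, which share its handling group. With the replicate number of the labels as a block it also passed, at a limma adjusted p of 0.0343, the only backed gene that did.

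Kcne1, a small membrane protein that slows and enlarges the potassium current ending the cardiac action potential, fell by 0.58 ± 0.10 (limma adjusted p = 0.0368). Probe set 1420672_at read 2145, 2438 and 2151 in wild type, 2005, 2026 and 2121 in ERRg +/- and 1621, 1234 and 1675 in the knockout. Probe set 1441035_at read 596, 539 and 605, then 565, 568 and 504, then 438, 326 and 396. Both were called, at log2 changes of -0.58 and -0.57, and in both the ERRg +/- arrays of the 2 handling groups lay close together. The change with the handling block was -0.56.

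Map3k10, a mitogen-activated protein kinase kinase kinase also called MLK2, fell by 0.93 ± 0.18 (limma adjusted p = 0.0464; -1.05 with the handling block). Its dimmer probe set read 84.5, 61.6 and 160 in wild type, 51.0, 90.0 and 45.0 in ERRg +/- and 37.8, 37.9 and 7.57 in the knockout. The brighter one read 139, 158 and 141, then 127, 120 and 130, then 75.1, 114 and 138, where the highest knockout array lay just under the lowest wild-type array. Neither probe set was called alone.

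Acaa2, the mitochondrial thiolase that carries out the last step of fatty acid beta-oxidation, fell by 0.31 ± 0.06 (limma adjusted p = 0.0464) and was the only backed gene of the 15 fatty acid genes with 2 or more probe sets. Its probe set 1428145_at read 5223, 6228 and 5391 in wild type, 4896, 4549 and 4495 in ERRg +/- and 3816, 4446 and 4032 in the knockout. Probe set 1428146_s_at read 6502, 6900 and 6892, then 6796, 5891 and 5811, then 5308, 5552 and 5260. All 3 probe sets separated the genotypes, and 2 were called. In 1428146_s_at ERRg +/- array 1 lay with wild type while arrays 2 and 3 lay nearer the knockout, and the gene's change with the handling block was -0.19.

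The other 2 backed falls were smaller with the handling block. Rab3ip, an exchange factor for Rab GTPases of vesicle transport, fell by 0.49 ± 0.10, but by 0.24 with the handling block (limma adjusted p of 0.0464 and 0.853). Aprt, which salvages adenine into AMP, fell by 0.43 ± 0.09 (adjusted p = 0.0464), and by 0.16 with the block (0.854). Its probe set 1423801_a_at read 1493, 1550 and 1723 in wild type and 1202, 1135 and 1251 in the knockout. On the ERRg +/- arrays it read 1400, 1365 and 1276.

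Among the 11 backed rises, the 3 with a handling-block change closest to or above the unblocked one were Olfm1, Itga9 and Arhgef10. Olfm1, a secreted glycoprotein first known from neural tissue, rose by 0.91 ± 0.17 (limma adjusted p = 0.0386; 1.00 with the block). Its probe set 1426562_a_at read 44.7, 33.7 and 58.7 in wild type, 76.5, 92.6 and 75.8 in ERRg +/- and 132, 142 and 96.1 in the knockout. The 3 genotypes did not overlap in it, and ERRg +/- array 1 lay with arrays 2 and 3. The Olfm1 gene mean of ERRg +/- array 1 was 0.71 above wild type, and the knockout was 0.29 above ERRg +/- arrays 2 and 3.

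Itga9, an integrin alpha chain that binds matrix proteins such as tenascin-C, rose by 0.81 ± 0.16 (limma adjusted p = 0.0464; 1.09 with the block). Probe set 1460285_at read 290, 386 and 318 in wild type, 443, 361 and 395 in ERRg +/- and 522, 487 and 577 in the knockout. The Itga9 gene mean of ERRg +/- array 1 was 0.81 above wild type, and the knockout was 0.28 above ERRg +/- arrays 2 and 3. Arhgef10 rose by 0.71 ± 0.14 (0.0459; 0.66 with the block), with 3 of 3 probe sets separating the genotypes and none called alone. The largest of its changes, 1.25, was in the dim 1446374_at, at 3.30 to 16.9 in wild type. The brighter probe sets changed by 0.42 and 0.46. For Arhgef10 the ERRg +/- arrays lay near the knockout: the gene mean of ERRg +/- array 1 was 0.60 above wild type, and the knockout was 0.06 above ERRg +/- arrays 2 and 3.

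Sgcb, a sarcoglycan of the dystrophin complex that ties the muscle cell membrane to the matrix, rose by 0.68 ± 0.12 (limma adjusted p = 0.0368; 0.52 with the block). Its probe set 1436678_at read 92.1, 90.4 and 54.2 in wild type, 90.2, 111 and 72.7 in ERRg +/- and 188, 145 and 160 in the knockout. Its brightest probe set did not follow: 1419667_at read 1124, 1170 and 936 in wild type and 1136, 1040 and 1124 in the knockout, a log2 change of 0.04. The gene counts as backed through its other 2 probe sets, at 0.95 and 1.05, while the probe set with the most signal overlapped.

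Several rises separated the handling groups as sharply as the genotypes. Btg1, an antiproliferative factor, read 545, 488 and 405 in wild type and 451 on ERRg +/- array 1 in probe set 1437455_a_at, but 1608 and 1588 on ERRg +/- arrays 2 and 3 and 1616, 1655 and 1347 in the knockout. The gene rose by 0.92 ± 0.17 (limma adjusted p = 0.0397), and by 0.23 with the handling block. The knockout minus ERRg +/- arrays 2 and 3 was -0.08. Between the ERRg +/- arrays themselves, arrays 2 and 3 lay 0.69 above array 1.

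Marcks, an actin- and membrane-binding substrate of protein kinase C, had 7 probe sets, of which 5 separated the genotypes upward and 3 were called. Its probe set 1415971_at read 1450, 1476 and 1473 in wild type, 1437, 2016 and 2002 in ERRg +/- and 2123, 2281 and 2280 in the knockout. The gene mean rose by 0.64 ± 0.13 (limma adjusted p = 0.0464) and by 0.16 with the block. The agreement of many probe sets thus went with a difference that was mostly shared with the handling groups, though all 3 knockout arrays lay above ERRg +/- arrays 2 and 3.

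Matr3, a nuclear matrix RNA-binding protein, rose by 0.69 ± 0.12 (limma adjusted p = 0.0368; 0.39 with the block), with 2 of 4 probe sets called. In 1438368_a_at it read 679, 661 and 514 in wild type, 605, 1134 and 1279 in ERRg +/- and 1285, 1300 and 1120 in the knockout. Mzt1, a small partner of gamma-tubulin complexes, rose by 0.92 ± 0.17 (0.0386; 0.34 with the block). Its probe set 1434664_at read 127, 181 and 112 in wild type, 150, 263 and 155 in ERRg +/- and 381, 445 and 293 in the knockout, where all 3 knockout arrays were the highest of the 9.

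Mtx3, a metaxin of the mitochondrial outer membrane, showed the largest backed rise, 0.99 ± 0.19 (limma adjusted p = 0.0459; 0.45 with the block). Its called probe set 1434806_at was near background in wild type, at 9.59, 7.79 and 8.86, and read 83.7, 68.9 and 92.4 in the knockout. The ERRg +/- arrays read 41.1, 77.8 and 68.7, between the genotypes for array 1 and within the knockout range or at its edge for arrays 2 and 3. At such low signal the change on the log2(signal + 16) scale, 1.97, understates the ratio of the means. Ankrd10 (0.74 ± 0.14; 0.35 with the block; limma adjusted p = 0.0397) and Calu, a calcium-binding protein of the secretory pathway (0.53 ± 0.09; 0.38; 0.0368), were the remaining rises. The brighter Calu probe set read 3842, 3754 and 3805 in wild type and 4457, 4317 and 4454 in the knockout, and ERRg +/- read 3819, 4428 and 4451. It changed by 0.21. The other, 1441477_at, changed by 0.84 and was near background in wild type. It read 16.7, 21.1 and 15.2 there and 41.6, 39.3 and 52.5 in the knockout.

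**Figure D3:**
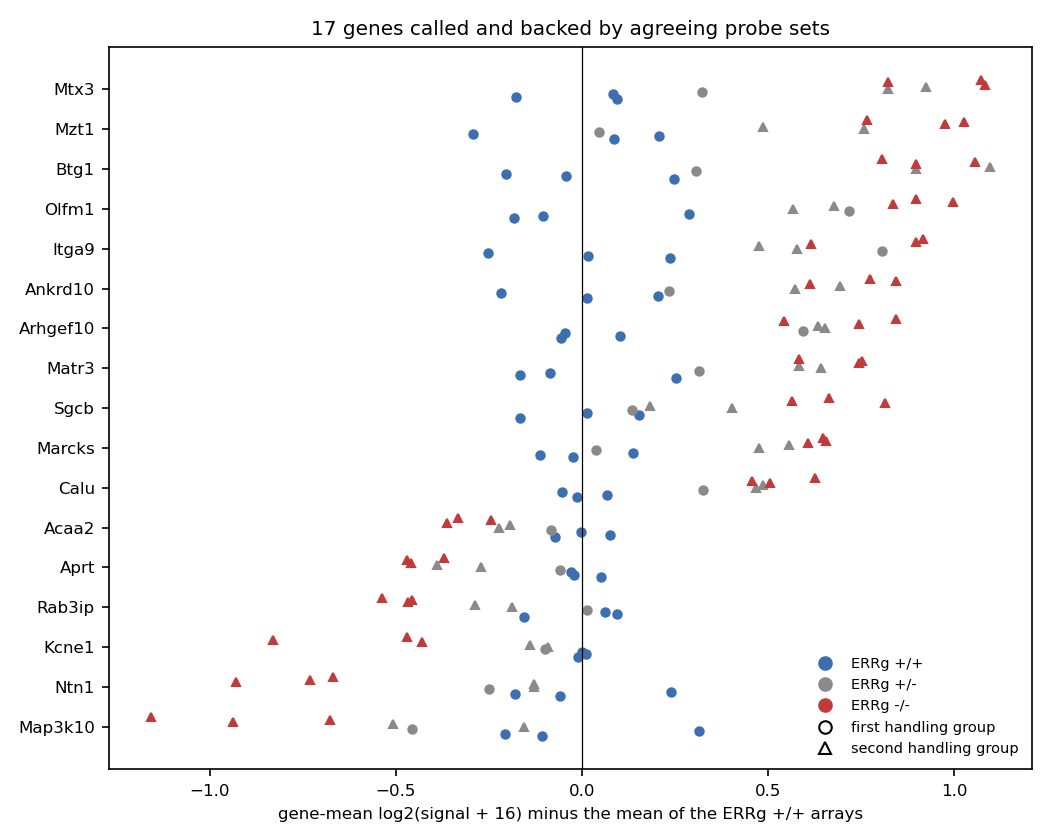
Gene-mean log2(signal + 16) of the 17 backed genes on the 9 arrays, each set against the mean of its 3 ERRg +/+ arrays; colour gives the genotype and shape the handling group. For Ntn1 and Kcne1 all 3 ERRg +/- arrays lie nearer to wild type than to the knockout, while for Btg1 and Mtx3 the 2 ERRg +/- arrays of the second handling group lie among or next to the knockout.

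Across the 17 backed genes, the difference between ERRg +/- arrays 2 and 3 and ERRg +/- array 1 had the direction of the knockout change in 13. It reached at least 50% of the knockout change in 7 and stayed under 20% of it, or ran the other way, in 6. The handling block takes this same ERRg +/- difference off the knockout change, so its counts are no second result. With it all 17 kept their direction, 10 with at least 50% of their size and 7 with less. Under the block 8 of the 17 had an unadjusted p under 0.05 by limma, beside 422 of all 6135 genes. The 17 were picked on the same knockout and wild-type arrays, which favours a low p. In 10 of 17 the gene mean of every knockout array lay beyond both ERRg +/- arrays of its own handling group: Acaa2, Itga9, Kcne1, Map3k10, Marcks, Mzt1, Ntn1, Olfm1, Rab3ip and Sgcb. The share of all 6135 genes in which this held was not counted, so the 10 are given as a description only. Over all 6135 genes, the knockout change and the difference between the ERRg +/- handling groups, which share no array, had a correlation of 0.25.

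**Figure D4:**
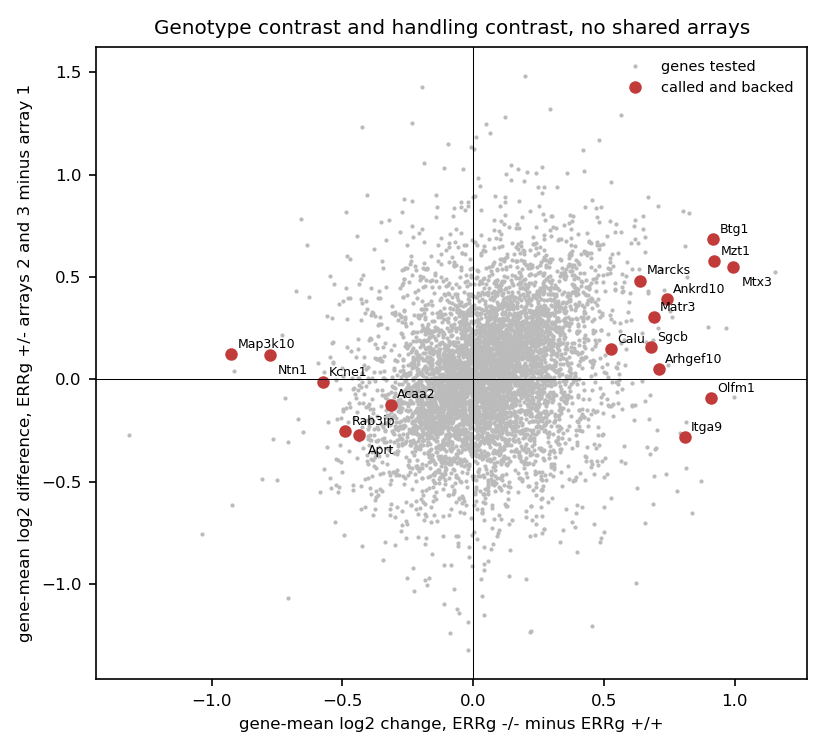
Gene-mean log2 change between ERRg -/- and ERRg +/+ (x axis) against the log2 difference between ERRg +/- arrays 2 and 3 and ERRg +/- array 1 (y axis) for 6135 genes, with the 17 backed genes filled and named. Btg1, Mzt1, Mtx3 and Marcks lie high on both axes, while Ntn1, Map3k10, Kcne1 and Olfm1 lie between -0.09 and 0.12 on the y axis.

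A looser reading of agreement uses no model: at least 2 probe sets of a gene separate all knockout from all wild-type arrays in 1 direction and none does in the other. This held upward in 319 genes (5.20%) and downward in 194 (3.16%), against 1438 genes (23.4%) whose gene means alone did not overlap. The split moved to 321 upward and 91 downward after the shift to 1 median. In 364 genes, probe sets separated the genotypes in both directions. Of the 319 upward genes, 255 were also higher on ERRg +/- arrays 2 and 3 than on array 1, against 3145 of all 6135. Of the 194 downward genes, 149 were also lower there, against 2990 of 6135. The knockout lay beyond ERRg +/- arrays 2 and 3 in 65 of the upward and 42 of the downward genes, with no matching count over all genes.

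The 6 called genes that were not backed each had 2 probe sets of which 1 separated the genotypes. Gtsf1, a zinc-finger protein known from the germline, had the largest fall, 1.32 ± 0.18 (limma adjusted p = 0.0136; -1.05 with the block). Its probe set 1441836_x_at read 333, 268 and 223 in wild type, 200, 128 and 172 in ERRg +/- and 46.8, 81.3 and 58.8 in the knockout. The second, 1452967_at, read 26.0, 45.7 and 35.4 against 11.5, 7.18 and 29.3, low throughout and overlapping.

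Fgl2, a membrane-bound prothrombinase related to fibrinogen, rose by 1.15 ± 0.23 (limma adjusted p = 0.0464; 0.63 with the block). One of its probe sets read 109, 167 and 162 in wild type and 450, 399 and 412 in the knockout, and the other overlapped, at 135, 207 and 343 against 558, 271 and 420. Ddx1, an RNA helicase, was called higher (0.57 ± 0.11; adjusted p = 0.0459) through probe set 1440816_x_at alone, which read 289, 303 and 233 in wild type and 624, 730 and 596 in the knockout. That probe set read 309 on ERRg +/- array 1 and 728 and 631 on arrays 2 and 3. The brightest Ddx1 probe set read 1737, 1707 and 1792 against 1657, 1634 and 1751, a log2 change of -0.05. Ssr3 (0.53), Itm2a (0.42) and 2610507B11Rik (-0.46) were called through 1 probe set in the same way.

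Where a gene had a called probe set, its probe sets could part widely. Ran, the GTPase of nuclear transport, had 6: 1438977_x_at read 1712, 1737 and 1582 in wild type and 3626, 3713 and 2807 in the knockout, a called rise of 1.00. Probe set 1433569_x_at read 7359, 8670 and 7373 against 7738, 8660 and 7397 (0.03), and 1460551_at read 943, 910 and 990 against 780, 962 and 855 (-0.13). Probe sets 1434578_x_at and 1439270_x_at were higher without overlap, by 0.60 and 0.37, and the dim 1436490_x_at was lower without overlap, at 28.0, 134 and 95.3 against 27.6, 10.7 and 11.2 (-1.51). In the called probe set ERRg +/- array 1 read 1637 and arrays 2 and 3 read 3568 and 3475, the same split by handling group as in Btg1.

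Hnrnpab, an RNA-binding protein, had 7 probe sets, and the called one, 1448144_at, read 320, 238 and 203 against 472, 513 and 540. Its probe set 1453849_s_at read 4884, 4852 and 4769 against 4329, 4874 and 4236, a log2 change of -0.11, and the dim 1459880_at was lower without overlap, with means of 43.1 in wild type and 13.3 in the knockout (-1.01). Ide, the insulin-degrading enzyme, was called in 1441860_x_at, which read 12.5, 5.05 and 12.1 in wild type and 71.2, 42.5 and 73.8 in the knockout, whereas 1435140_at gave 1352, 1303 and 1226 against 1246, 1283 and 1355. The latter overlapped between genotypes, while 1423120_at was lower without overlap, at 1314, 1221 and 1177 against 960, 1021 and 1077 (-0.28).

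S100a10, a small partner of annexin A2, was called in 1456642_x_at (837, 883 and 747 against 1482, 1419 and 1383). Its probe set 1416762_at read 2967, 3446 and 3215 against 2788, 2878 and 3150. Wdr75, a factor of ribosomal RNA production, had a called rise in 1451649_a_at (169, 142 and 134 against 224, 258 and 268) and a non-overlapping fall in a dim probe set (22.2, 32.8 and 45.2 against 3.07, 19.9 and 1.77). Probe sets with the _x_at suffix, which the array maker gives to probe sets with probes that also match other transcripts, made up 39 of the 186 called (21.0%) and 1490 of the 23540 tested (6.33%). Leaving out those with the _x_at or _s_at suffix gave 16 called genes, 13 of them backed.

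Among the receptor's relatives and partners, 21 genes had 2 or more probe sets, 0 were called on their means by limma (7 at an unadjusted p under 0.05, which 15.8% of all 6135 genes passed), and 3 had at least 2 higher probe sets and none lower: Ppargc1a, Hif1a and Mef2a. Ppargc1a encodes PGC-1α, the coactivator with which ERRγ drives mitochondrial genes, and 4 of its 5 probe sets separated the genotypes upward. Probe set 1434099_at read 170, 188 and 116 in wild type, 271, 289 and 316 in ERRg +/- and 334, 305 and 317 in the knockout, with a limma adjusted p of 0.0236. The brightest, 1460336_at, read 1390, 1081 and 1163, then 1164, 1156 and 1214, then 1089, 1089 and 973, a log2 change of -0.20. The gene mean was 0.43 ± 0.10 higher with a limma adjusted p of 0.0797, and 0.32 with the handling block.

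Hif1a, the oxygen-sensitive subunit of hypoxia-inducible factor, had a gene mean 0.53 ± 0.12 higher (limma adjusted p = 0.0845; 0.54 with the block). Its probe set 1427418_a_at read 1184, 1197 and 1229 in wild type, 1022, 1770 and 1574 in ERRg +/- and 1847, 2051 and 1813 in the knockout. There ERRg +/- array 1 lay below wild type and arrays 2 and 3 nearer the knockout, a split by handling group. The dim 1431981_at ran the other way, at 61.6 on ERRg +/- array 1 and 42.7 and 12.7 on arrays 2 and 3. The gene mean with the block averages both. Perm1, a muscle regulator that PGC-1 and ERR receptors are known to induce, had a gene mean lower by 0.54, a change of -0.54 ± 0.14 (0.102). Perm1 changed by -0.84 with the block and by -0.15 between the knockout and ERRg +/- arrays 2 and 3. In its called probe set it read 592, 459 and 565 in wild type, 539, 385 and 423 in ERRg +/- and 326, 288 and 349 in the knockout. Its other probe set was dim, at 5.11 to 48.6 over the 9 arrays, and overlapped. On the ERRg +/- arrays these probe sets ran opposite ways. The called one was lower on arrays 2 and 3 than on array 1, the direction of the knockout change. In the dim one array 1 held the lowest value, 5.11. The larger Perm1 change with the block thus came from the dim probe set. The median of the 21 genes was 0.05, beside 0.04 over all genes tested.

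Respiratory complex I, which passes electrons from NADH to ubiquinone, had 20 genes with 2 or more probe sets. None was called on its mean by limma, and 9 had an unadjusted p under 0.05 (45.0%, beside 15.8% of all 6135 genes). Of the 20, 9 had at least 2 lower probe sets and none higher (45.0%, beside 3.16% of all genes). The reverse held in 0, beside 5.20% of all genes. The 9 were Ndufa10, Ndufa3, Ndufa7, Ndufb11, Ndufb2, Ndufb7, Ndufb9, Ndufs7 and Ndufv2. The list median was -0.10, beside 0.04 over all genes, with single genes from -0.32 to 0.32. Ndufs7, a subunit of the electron-transfer arm, read 7810, 8595 and 8491 in wild type, 8215, 6297 and 6436 in ERRg +/- and 6194, 6255 and 7024 in the knockout in probe set 1451312_at. ERRg +/- array 1 lay with wild type and arrays 2 and 3 with the knockout.

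The same held for the list. With the handling block its median was 0.01, between the knockout and ERRg +/- arrays 2 and 3 it was 0.01, and in 0 of the 9 genes did the knockout lie below both of those arrays. Ndufs7 changed by -0.32 ± 0.07 without the block (limma adjusted p = 0.0797) and by -0.02 with it, and Ndufb7 by -0.29 and 0.03. Under quantile normalization the median was -0.04 with 5 genes of this kind, and after a shift of each array to 1 median it was -0.07, with 4 lower and 1 higher. On these arrays the lower complex I signal in the knockout cannot be told apart from the handling group.

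Complexes II to V had 26 genes with 2 or more probe sets, 0 called by limma. An unadjusted p under 0.05 was found in 11 (42.3%, beside 15.8% of all 6135 genes). Lower by at least 2 probe sets were Cox5b, Cox6b1, Cox7a2, Cox8a and Uqcrc2 (5 genes, 19.2%, beside 3.16% of all genes). Higher were Cox5a and Cycs (2 genes, 7.69%, beside 5.20%). Their median was -0.04, -0.01 with the block, and it turned to 0.03 under quantile normalization, where 4 genes were higher and 1 lower. Cox8a, a small subunit of cytochrome c oxidase, read 7181, 7181 and 8271 in wild type, 7784, 6252 and 6361 in ERRg +/- and 5968, 6191 and 6328 in the knockout in 1416112_at. Cox6a2, the heart and muscle form of another subunit, read 12026, 12530 and 11282 against 11587, 10656 and 11256 in its brighter probe set and 1491, 1761 and 1780 against 727, 1556 and 593 in the other, with no separation in either. Its gene means did not overlap, with a change of -0.51 ± 0.12 (limma adjusted p = 0.0856). The change was -0.46 with the block and -0.55 between the knockout and ERRg +/- arrays 2 and 3.

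In the remaining energy lists the medians lay between -0.06 and 0.06, and the counts of lower genes are read against the 3.16% of all genes. Fatty acid uptake and oxidation (15 genes) had a median of -0.01, with Acaa2 called and Acaa2 and Hadh lower by at least 2 probe sets (13.3%). The citric acid cycle and pyruvate oxidation list (14 genes) had a median of -0.06, with Cs and Idh3g lower (14.3%) and Dlat higher. Glycolysis and glucose uptake (11 genes) had a median of -0.05, with Ldhb, Pfkl and Slc2a1 lower (27.3%) and Pfkp higher, and the mitochondrial ribosome (31 genes) had -0.06, with 2 genes lower (6.45%). In these 3 lists 0 genes were called by limma, with 5, 4 and 3 at an unadjusted p under 0.05. Citrate synthase, phosphofructokinase and the glucose transporter GLUT1 are encoded by Cs, Pfkl and Slc2a1, and 0 of the downward genes of the citric acid cycle and glycolysis lists lay below both ERRg +/- arrays 2 and 3.

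Mitochondrial import, DNA and dynamics had 22 genes, 0 called by limma. At an unadjusted p under 0.05 were 4 (18.2%, beside 15.8% of all genes). The list held Tomm20, the outer-membrane receptor for imported proteins, with 6 probe sets. Probe set 1435534_a_at read 364, 395 and 260 in wild type, 364, 729 and 680 in ERRg +/- and 906, 642 and 615 in the knockout, a called rise of 1.05. Its brightest, 1423080_at, read 3184, 3269 and 2969 against 2871, 3082 and 3054 (-0.06). The gene mean was 0.47 ± 0.11 higher with a limma adjusted p of 0.0797, and 0.04 with the handling block. Lamp2, a lysosomal membrane protein, was alike: 0.80 ± 0.18 (0.075) without the block and -0.02 with it. Its probe set 1434503_s_at read 1407, 1053 and 700 in wild type and 959 on ERRg +/- array 1, against 3220 and 3083 on ERRg +/- arrays 2 and 3 and 3202, 2879 and 2878 in the knockout.

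Among contraction and conduction genes, Kcne1 was the single gene that limma called. Of 20 ion channel and pump genes it alone had 2 lower probe sets and none higher, with 0 genes the reverse. The connexin gene Gja1, which builds gap junctions between heart cells, had 4 probe sets higher and 1 lower out of 6: 1415800_at read 3072, 2935 and 2778 against 5331, 4717 and 4469, and 1415801_at read 5255, 5426 and 6224 against 4691, 4628 and 5091. ERRg +/- read 2951, 5527 and 5335 in the first of these, and the gene's change was 0.44 without the block and -0.01 with it. The sarcomere list (13 genes, median 0.03) had 3 genes lower (Myl3, Nebl and Ttn, 23.1% beside 3.16% of all genes), and calcium handling (15 genes, median -0.04) had 4 lower (Asph, Atp2a2, Pln and Sri, 26.7%) and 1 higher (Trdn). In both lists 0 genes were called by limma, with 3 and 2 at an unadjusted p under 0.05 (23.1% and 13.3%, beside 15.8% of all genes). Under quantile normalization the sarcomere list had 2 higher and 2 lower. With the handling block the medians were -0.02 for the sarcomere and 0.02 for calcium handling. Of the lower genes, 1 of the sarcomere list and 0 of the calcium handling list lay below both ERRg +/- arrays 2 and 3.

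Of 29 extracellular matrix genes 0 were called by limma. At an unadjusted p under 0.05 were 6 (20.7%, beside 15.8% of all 6135 genes). Col3a1 and Vcan were higher by at least 2 probe sets (6.90%, beside 5.20% of all genes) and 0 were lower. The list median was 0.10, and it was 0.14 with the handling block and 0.09 under quantile normalization. Col3a1, a fibrillar collagen of fibroblasts, read 754, 620 and 539 in wild type, 685, 724 and 739 in ERRg +/- and 944, 805 and 994 in the knockout in 1427884_at. Its gene mean was 0.37 ± 0.09 higher (limma adjusted p = 0.0797; 0.35 with the block), and the knockout lay above all ERRg +/- arrays in that probe set. In the 14 marker lists of cell types 0 genes were called by limma, and 13 had an unadjusted p under 0.05. These were 3 of 6 cardiomyocyte, 2 of 6 fibroblast, 2 of 5 smooth muscle and pericyte and 2 of 3 erythroid genes. The conduction, epicardial, macrophage, and nerve and glia lists held 1 each, of 2, 4, 3 and 3 genes. In lists of 2 to 6 genes, 1 such gene already puts the share above the 15.8% of all 6135 genes. These shares therefore set no list apart. The other 6 lists held 0, among them the lung, liver and lymphocyte lists, which had no gene to test. The fibroblast list (6 genes with 2 or more probe sets, median 0.15) summed to 24895 to 27643 in wild type and 28282 to 29676 in the knockout, with 28513 and 24924 on ERRg +/- arrays 2 and 3. The part of fibroblast content in the matrix values was not tested.

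The erythroid list (3 genes, median 0.79, 0.36 with the block) summed to 1370 to 1874 in wild type and 1688 to 2084 in the knockout, and Hbb-b2 had the larger of its changes with the block (0.79 ± 0.23; limma adjusted p = 0.133; 1.05). The epicardial list held Tbx18, a transcription factor of the epicardium, at 0.67 ± 0.14 (0.0729; 0.25 with the block). Its called probe set read 263, 218 and 195 in wild type, 270, 431 and 410 in ERRg +/- and 400, 488 and 365 in the knockout. The list's sums overlapped, at 1018 to 1490 in wild type and 1138 to 1674 in the knockout.

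The other pathway lists held 0 genes called by limma, apart from Ntn1 among 16 guidance genes. There Neo1 and Sema3f also had 2 lower probe sets, which made 18.8% lower beside 3.16% of all genes. Nrp1 had 2 higher ones (6.25%, beside 5.20%), and 6 genes had an unadjusted p under 0.05 (37.5%, beside 15.8%). The guidance median was -0.01, or 0.14 with the handling block. Medians of the other lists ran from -0.05 for the cell cycle (28 genes, 5 at an unadjusted p under 0.05) to 0.07 for antioxidant, intercalated disc and fetal stress genes (14, 12 and 8 genes, with 5, 2 and 2). Heat shock (19 genes, 6), lysosome (23 genes, 4), aminoacyl-tRNA synthetase (11 genes, 5), cardiac transcription factor (14 genes, 3), imprinted (9 genes, 2), energy transfer (10 genes, 1) and hypoxia genes (10 genes, 0) lay between these medians. Each of these values sits close to the 0.04 of all genes.

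Several members of these lists changed less with the handling block. Prdx4, a peroxiredoxin of the endoplasmic reticulum, was 0.81 ± 0.17 higher (limma adjusted p = 0.065) and 0.16 higher with the block. Its probe set 1416166_a_at read 86.5, 96.6 and 83.7 in wild type, 96.6, 233 and 290 in ERRg +/- and 285, 223 and 181 in the knockout, while 1416167_at read 2992, 2829 and 3116 against 2675, 2866 and 2803. Hopx, a regulator of cardiac growth, was at -0.39 ± 0.10 (0.102) and 0.08 with the block, and Tbx20, a cardiac T-box factor, at 0.44 ± 0.11 (0.102) and 0.07. Cdh2, the cadherin of the intercalated disc, was at 0.47 ± 0.12 (0.102) and -0.0045 with the block.

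Other members kept most of their size with the block. Aimp2, a scaffold of the tRNA synthetase complex, was at -0.32 ± 0.08 (limma adjusted p = 0.0878) and -0.25 with the block. Trdn, the sarcoplasmic reticulum protein triadin, was at 0.38 ± 0.11 (0.131) and 0.38, with 3 of 6 probe sets higher and 0 lower. Vcan, the matrix proteoglycan versican, was at 0.50 ± 0.13 (0.102) and 0.39. Bub1b, a mitotic checkpoint kinase, was at -0.25 ± 0.10 (0.215) and -0.41. None of these 4 passed the test.

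Smooth muscle and pericyte markers (5 genes, median 0.12) summed to 7472 to 8195 in wild type and 8293 to 9049 in the knockout, with 8330, 8006 and 7870 on the ERRg +/- arrays. Their member Acta2, smooth muscle actin, was at 0.66 ± 0.16 (limma adjusted p = 0.0856) and -0.04 with the block. Endothelial (4 genes, median 0.01) and macrophage markers (3 genes, 0.20) overlapped in their sums, at 9124 to 9242 against 8390 to 9160 and 1197 to 1439 against 1236 to 1618. The nerve and glia list (3 genes) had a median of -0.39 and sums of 110 to 162 against 98.9 to 120. Atrial (4 genes, 0.01), conduction (2 genes, -0.05) and skeletal muscle markers (2 genes, -0.05) lay near 0. The part of these cell types in the gene results was not tested.

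**Figure D5:**
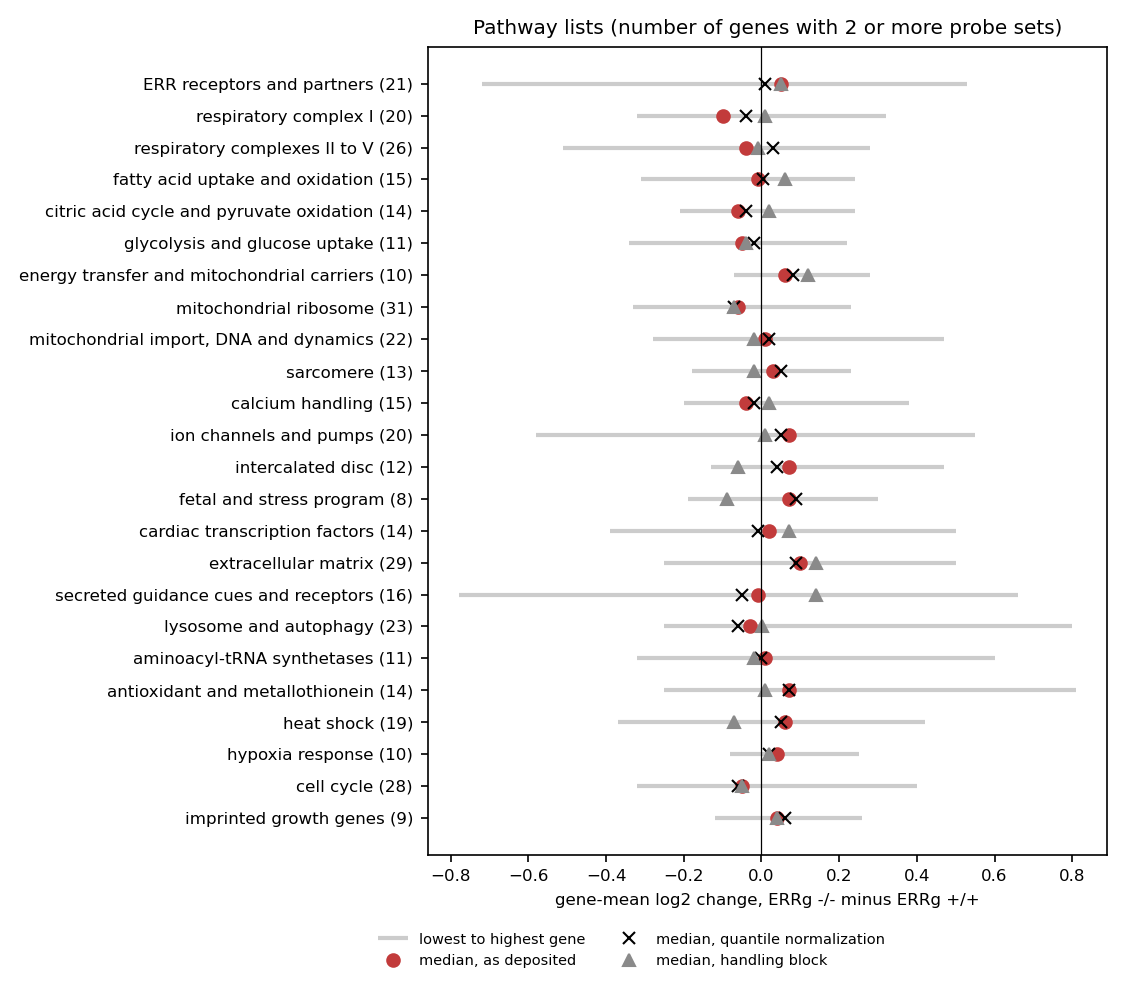
Median gene-mean log2 change between ERRg -/- and ERRg +/+ for the 24 pathway lists (number of genes with 2 or more probe sets in brackets), as deposited, after quantile normalization and with the handling block; grey bars run from the lowest to the highest gene. The complex I median of -0.10 moves to 0.01 with the block, and the extracellular matrix median of 0.10 moves to 0.14.

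Of the 7 genes with 2 or more called probe sets, 3 missed the gene-mean threshold. Rgs2, a brake on G-protein signalling, had 3 called probe sets: 1447830_s_at read 237, 300 and 239 in wild type, 356, 328 and 346 in ERRg +/- and 472, 459 and 462 in the knockout. The 3 genotypes did not overlap in it. Its other probe set, at 8.74 to 49.0 over the 9 arrays, overlapped (0.05), and the gene mean was 0.56 ± 0.12 higher (limma adjusted p = 0.0688; 0.32 with the block).

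Entpd5, a nucleoside diphosphatase of the endoplasmic reticulum, had 4 of 6 probe sets lower, of which 1433763_at read 499, 469 and 579 in wild type, 387, 427 and 464 in ERRg +/- and 303, 304 and 371 in the knockout. Its gene mean changed by -0.43 ± 0.11 (limma adjusted p = 0.103) and by -0.42 with the block. Il13ra1, a receptor chain for interleukins 13 and 4, had 4 of 5 probe sets higher, of which 1451775_s_at read 227, 218 and 223 in wild type, 264, 273 and 330 in ERRg +/- and 350, 349 and 371 in the knockout. Its gene mean was 0.46 ± 0.13 higher (0.112; 0.36 with the block). In both genes the other probe sets overlapped between genotypes.

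The element that ERR receptors are known to bind reads TCAAGGTCA, and it was searched on both strands from 250 bases before to 50 bases after the start of 4969 of the 6135 genes, in RefSeq promoters of GRCm38.p6. It stood in 0.423% of all promoters of that table and in 0.201% of those of the 4969 genes. None of the 11 backed genes with a promoter there held it, and among 162 genes with 2 or more lower probe sets and none higher it stood in Psap and Tpm3 (1.23%), against 0 of 242 higher genes. With any base at the second position, TNAAGGTCA, the counts were 0 of 11, 2 of 162 and 2 of 242, beside 1.28% of all promoters and 0.785% of those tested. The core AAGGTCA, which the longer forms contain, stood in 1 of 11 (Calu), 10 of 162 and 10 of 242, beside 4.72% of all promoters and 3.82% of those tested. A match describes these letters and is no evidence of binding, and no match says only that they are not in this window.

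The windows below show the element in the 2 lower genes that hold its full form, the core in the 1 backed gene that holds it, and the core in Isca1, a mitochondrial iron-sulfur cluster assembly gene. They were chosen after the values were seen, run 5′ to 3′ on the gene's strand and end at or before the start site. Capitals mark the match, which for Psap lies on the opposite strand and so reads TGACCTTGA.
Psap: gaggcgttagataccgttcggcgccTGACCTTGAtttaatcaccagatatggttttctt
Tpm3: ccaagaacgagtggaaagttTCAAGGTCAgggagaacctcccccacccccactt
Isca1: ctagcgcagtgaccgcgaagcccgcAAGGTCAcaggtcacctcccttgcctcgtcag
Calu: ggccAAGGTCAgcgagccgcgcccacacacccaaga
These windows lie at chr10:60277454-60277512 (Psap, plus strand), chr3:90072401-90072454 (Tpm3, plus strand), chr13:59769893-59769949 (Isca1, minus strand) and chr6:29347856-29347891 (Calu, plus strand). Psap, a precursor of lysosomal saposins, read 3559, 3579 and 3744 in wild type, 3917, 3032 and 2741 in ERRg +/- and 2787, 3071 and 3060 in the knockout in 1421813_a_at. Its gene mean changed by -0.18 ± 0.08 (limma adjusted p = 0.266) and by 0.11 with the handling block, Tpm3, a tropomyosin, by -0.21 ± 0.10 (0.321) and -0.16, and Isca1 by -0.18 ± 0.07 (0.214) and 0.03. None of these 3 gene means was called.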

How the data were processed

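Labelled RNA from 9 ventricle samples was measured on Affymetrix arrays. The authors deposited 1 intensity per probe set and array on a linear scale. Per the submitters' processing notes the tool was MAS5, with no version given there. Each array had been scaled to a trimmed mean of 200. MAS5 subtracts mismatch probes, so dim signals are noisy. Of 45101 probe sets, 64 were controls, 34945 named 1 gene, 932 several and 9160 none; only those with 1 gene were used, with symbols updated by gene ID (34741; 204 kept). Values were analysed as log2(signal + 16), a scale that shrinks the changes of weak signals, and probe sets of a gene were averaged. Genotypes were compared over all 9 arrays with limma 3.58.1 (R 4.3.3; 1 mean per genotype, eBayes with an intensity trend), two-sided, adjusted by Benjamini-Hochberg, called under 0.05.

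Named genes were Esrrg, all backed genes (fewer than 12 in each direction), the 6 genes whose probe sets disagreed most among those with a called probe set, and up to 4 members with the smallest p of each list described; called genes that were not backed, the 7 genes with 2 or more called probe sets and the genes with printed promoters were added after their values were seen. The 38 lists have 870 entries, of which 816 matched the array. Members, lists and tests were chosen with earlier results of these data known. The fit was tested on simulated data. Alternatives were quantile normalization, a median shift, a pseudocount of 1 or 64, the 60th percentile as the filter or none at all, no _x_at or _s_at probe sets, the brightest probe set, genes with 1 probe set included, the 6 arrays alone, no intensity trend, array weights, replicate and handling blocks, and each array left out. Detection calls were not used. The number of arrays limits the precision.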

Additional observations from a re-analysis of the deposited data

How the results depend on the processing

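The count of 23 called genes, 17 of them backed, and of 186 called probe sets depended on nearly every setting. Called genes, backed genes and called probe sets numbered 15, 11 and 182 under quantile normalization, 2, 1 and 14 with each array shifted to 1 median (0 higher and 2 lower, against 15 higher and 8 lower), 0, 0 and 97 with a pseudocount of 1, and 60, 41 and 217 with a pseudocount of 64. They were 11, 7 and 68 without a filter, 58, 44 and 174 with the filter at the 60th percentile, 188, 122 and 1312 on the 6 arrays alone, 1, 0 and 1 without the intensity trend, and 128, 86 and 934 with array weights. The brightest probe set gave 107 called genes (53 higher and 54 lower) and 45 backed, and including genes with 1 probe set gave 71 (29 higher and 42 lower) and 13. The replicate block gave 2, 1 and 71, though same-numbered arrays did not deviate together (correlations of -0.07 to 0.06), and the handling block gave 0, 0 and 1, with Esrrg at -1.89 and a limma adjusted p of 0.235. Leaving out 1 array gave 0 to 215 called genes, 0 to 138 backed genes and 12 to 1457 called probe sets, the highest of each without ERRg +/- array 1, while the Esrrg change ran from -1.95 to -1.74. Called probe sets were also over 1.5 times fewer without each ERRg -/- or ERRg +/+ array, at 12 to 36. Backed genes fell to 0 to 5 without each of those arrays or ERRg +/- array 2. Where tested, all 17 backed genes kept their direction under these settings. Leaving out 1 array could not reverse it, as their knockout and wild-type gene means did not overlap. Of the called genes, Ddx1 reversed, to -0.05 with the brightest probe set. The cause of these shifts was not tested.

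With 3 arrays per genotype, dim probe sets limit what averaging can show, and the handling block rests on 3 ERRg +/- arrays. Low signal and a probe set's failure to read a transcript were not told apart.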
